A study of Mus musculus with 3 samples.

Results

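The 47 genes described here encode the proteins that license replication origins, unwind DNA, copy it and supply its nucleotides. They were taken by name from a list arranged by step and placed at their RefSeq positions in mm10, and all 47 were found among 21887 protein-coding genes. The rule itself uses no measured value. The data are lists of H3K27ac peaks, regions enriched for histone H3 acetylated on lysine 27, from 2 replicates of thymocytes. The cells were CD4-CD8- double-negative T cells, further described as CD25+CD44-/+, sorted from the thymus of wild-type C57BL/6J mice of 5 to 7 weeks and used without culture. Both replicates carried the same genotype and no treatment, so the design holds no comparison between conditions. The labels also give 1 input sample, not analysed here. The labels do not say whether the replicates came from different animals.

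H3K27ac lies on nucleosomes that flank the start sites of active genes and on active enhancers. DNA replication begins when the origin recognition complex, with Cdc6 and Cdt1, loads the Mcm2 to Mcm7 ring onto DNA in G1. A kinase made of Cdc7 and Dbf4 then helps turn that ring, with Cdc45 and the GINS complex, into the active helicase, and polymerases, the sliding clamp and ligase complete both strands. Many of these genes are known targets of E2F factors, which time their transcription to the G1 to S transition. Double-negative thymocytes are known to divide strongly once they have made a T cell receptor beta chain.

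The files list 12377 peaks in replicate 1 and 9477 in replicate 2 on the assembled chromosomes. They hold no read counts, so the depth is unknown and counting error could not be estimated. In chromatin pooled from many cells, fewer cells carrying a mark and less mark per cell cannot be told apart. Among 16 markers of double-negative thymocytes, 5 had peaks at a gene end in both replicates (31.2%, against 16.8% of all protein-coding genes): Cd3d, Cd3e, Cd3g, Tcf7 and Dntt. The Cd3 genes are neighbours whose covered regions are largely the same, so they are not separate measurements. Il2ra, which encodes CD25, had a peak in replicate 2 alone, as did Cd247 and Thy1. Ptcra and Bcl11b had one in replicate 1 alone. Cd44, Gata3, Notch1, Rag1, Rag2 and Lck had none in either replicate. Farther out, within 25 kb, both replicates shared 2441 bp near Bcl11b, 1510 bp near Cd247 and 1349 bp near Gata3. They also shared 532 bp near Il2ra, 427 bp near Notch1 and 316 bp near Lck. Cd44, Rag1, Rag2, Ptcra and Thy1 had 0 bp. None of the listed markers of later thymocytes (6 genes), B cells (7), myeloid cells (6), erythroid cells (5) or thymic stroma (6) had a gene-end peak in both replicates. With 16.8% of all genes called, lists this short do not show that such cells were absent. Within 25 kb, peaks of both replicates shared 1223 bp near Cd79a, 1186 bp near Vpreb1 and 502 bp near Elane. Many other genes of these lists, Pax5 and Ebf1 among them, had 0 bp. In the list for NK and innate lymphoid cells 1 of 5, Nkg7, had a gene-end peak in both replicates, with 0 bp shared within 25 kb. Klrb1c had 1141 bp shared but no gene-end peak.

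Replication genes carried H3K27ac at their ends more often than the average gene. A gene was counted as called when each replicate had a peak within 1 kb of either annotated end. This held for 18 of the 47 members (38.3%), against 16.8% of all protein-coding genes. In replicate 1 the count was 20 (42.6%, against 25.1% of all genes). In replicate 2 it was 33 (70.2%, against 22.2%), and in either replicate 35 (74.5%, against 30.5%). The called members were Orc5, Orc6, Cdt1, Gmnn, Mcm2, Mcm4, Mcm5, Mcm6, Mcm7, Gins1, Dbf4, Prim2, Pold3, Rfc3, Rfc4, Pcna, Fen1 and Rrm1. At all of them except Gins1 the peaks of the replicates overlapped (17 members, or 36.2%, against 16.2% of genes). Few of these peaks were strong. With q of at most 0.05 in both replicates, Mcm6 alone remained (2.13%, against 2.64% of genes), so the difference from the background was not present at that threshold.

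**Figure D1:**
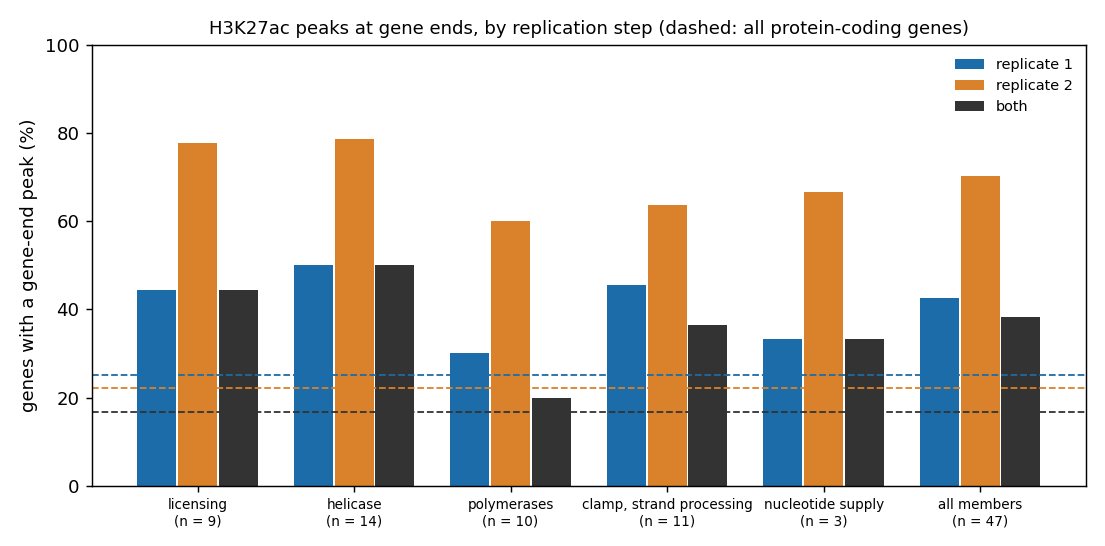
Share of members with an H3K27ac peak within 1 kb of a gene end (vertical axis, percent) in replicate 1, replicate 2 and both, for each step and for all 47 members. Dashed lines give the shares over all protein-coding genes in the same colours (25.1%, 22.2% and 16.8%). Replicate 2 stands above replicate 1 in all 5 steps, and the bar for both replicates is lowest for polymerases (20%), whose replicate 2 bar is at 60%.

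The members' promoters were CpG-rich more often than those of all genes. Promoter sequences of 300 bases, from 250 before to 50 after the start site, were matched for 39 members in RefSeq (GRCm38.p6). CpG-rich promoters, with an observed to expected CpG ratio of at least 0.6 and at least 50% GC, made up 28 of these 39 (71.8%), against 45.8% of 17492 genes with a promoter sequence. Among the 28 CpG-rich members 12 were called in both replicates (42.9%), against 30.3% of all 8004 genes with such promoters. In replicate 1 alone the shares were 50% and 43.2%, so there the members were near the background of like promoters. In replicate 2 alone they were 75% and 39.1%.

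The replicates differed at these genes. Peaks were found at 15 members in replicate 2 only (31.9%, against 5.44% of all genes) and at 2 members in replicate 1 only (4.26%, against 8.32% of genes). Replicate 2 had the shorter peak list overall. The 15 were Orc2, Orc3, Cdc6, Mcm10, Cdc45, Gins4, Cdc7, Pola1, Pola2, Pold1, Pole2, Rfc2, Rpa2, Rpa3 and Rrm2, and the 2 were Pole3 and Rpa1. The nearest replicate 1 peak lay between 4779 bp (Pold1) and 129762 bp (Mcm10) from these replicate 2 peaks. The replicate 2 peaks at the 15 were narrow, with a median width of 371 bp against 809 bp at the members called in both. Over all genes the corresponding medians were 498.5 bp and 765 bp. Whether a difference in enrichment or depth between the libraries goes with this was not tested.

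In the licensing step 4 of 9 genes were called (44.4%, against 16.8% of all genes and 30.3% of those with CpG-rich promoters). They were Orc5, Orc6, Cdt1 and Gmnn. Orc6, a subunit of the origin recognition complex, had a peak of 1531 bp with a fold enrichment of 2.19 in replicate 1 and one of 1084 bp with 2.32 in replicate 2. Both covered the start site and had -log10 q of 0.828 and 0.938. Vps35, a coding gene of protein sorting, has an end 115 bp from that of Orc6, so the peaks cannot be assigned to one of them.

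Cdt1, the loading factor that brings the Mcm ring to origins, had peaks of 1138 bp (fold 2.04) and 1278 bp (fold 2.06) in replicates 1 and 2. The replicates placed them almost identically, from -634 to 503 and from -606 to 671 bp around the start site. Gmnn encodes geminin, the inhibitor of Cdt1, and had peaks of 582 bp (fold 2.13) and 450 bp (fold 3.06). Its replicate 2 peak had a -log10 q of 2.0 and passed q of 0.05, while the replicate 1 peak, at 1.00, did not. Orc5 had peaks of 1086 bp and 748 bp with folds of 2.03 and 1.63, the latter in the lowest part of the list (10.1th percentile of replicate 2 gene-end peaks).

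The other licensing genes split into those with a peak in replicate 2 and those with peaks away from the annotated ends. Orc2 (371 bp, fold 2.51), Orc3 (415 bp, fold 1.92) and Cdc6 (301 bp, fold 2.08), the partner of Cdt1 in loading, had gene-end peaks in replicate 2 alone. Orc1 and Orc4 lacked such peaks, but their RefSeq start sites lie 3749 and 2668 bp inside the gene span. At the Orc1 start site both replicates had a peak, of 885 bp (fold 1.92) and 1035 bp (fold 2.43), over which Prpf38a, a splicing gene, also has an end. At the Orc4 start site the peaks were 1491 bp (fold 2.32) and 669 bp (fold 1.86) wide. Of annotated coding gene ends, that of Mbd5 lay nearest to the region they share, at 388 bp. The peaks therefore cannot be assigned to Orc4 alone. Counted at start sites in place of gene ends, 16 of 39 members were called (41.0%, against 17.6% of genes with a start site), Orc1 and Orc4 included.

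Helicase genes had the highest share, 7 of 14 (50%, against 16.8% of all genes and 30.3% of those with CpG-rich promoters). Most of it came from the Mcm ring itself. Of Mcm2 to Mcm7, 5 of 6 were called (83.3%). Mcm6 was the only member whose peaks passed q of 0.05 in both replicates. Its peaks were 2040 and 2235 bp wide, with folds of 2.59 and 3.01 and -log10 q of 1.89 and 2.0. They ran from 110 to 2149 and from 128 to 2362 bp downstream of the start site, so that both lay wholly inside the gene.

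Mcm7 had peaks of 1388 bp (fold 2.37) and 1410 bp (fold 2.13) over its start site. Ap4m1, a gene of vesicle transport, starts 90 bp from the annotated end of Mcm7. Mcm4 had peaks of 1168 bp (fold 2.27) and 1226 bp (fold 2.21), at an end that lies 44 bp from Prkdc, the gene of the DNA-dependent protein kinase. Mcm5 had peaks of 927 bp (fold 1.98) and 908 bp (fold 2.33), with no other annotated gene end within 1 kb. Mcm2, on chromosome 6, had the lowest replicate 1 fold of any member (1.54, width 1265 bp) and a narrow replicate 2 peak of 384 bp (fold 1.68). Its peaks shared 210 bp. Mcm3, the remaining ring subunit, had no peak of either replicate within 25 kb of its ends.

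Of the 8 helicase genes outside the ring 2 were called, Dbf4 and Gins1 (25%, against 16.8% of all genes). A replicate 2 peak was found at 6 of the 8, against 22.2% of all genes and 70.2% of the 47 members. The difference from the ring was not tested. Dbf4, the regulatory subunit of the kinase, had peaks of 1318 bp (fold 1.80) and 340 bp (fold 2.25), and Slc25a40, a mitochondrial carrier gene, has an end 5 bp away. Cdc7, its catalytic partner, had a single peak of 235 bp (fold 2.67), close to the narrowest width in the replicate 2 list (229 bp). Of the 4 GINS genes only Gins1 was called, and there the replicate 1 peak (434 bp, fold 2.27) and the replicate 2 peak (389 bp, fold 2.09) lay 267 bp apart. Gins4 had a replicate 2 peak of 448 bp with a fold of 2.60 and a -log10 q of 2.73. Gins2 and Gins3 had none at a gene end. Mcm10 (317 bp, fold 2.72, -log10 q 1.68) and Cdc45 (669 bp, fold 2.18), both needed for helicase activation, had peaks in replicate 2 alone.

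Promoter sequences of the 5 ring genes that have an entry, and of Cdt1 and Orc6, are shown to set the letters that E2F and NF-Y factors are known to bind beside the presence or absence of peaks. Each is 300 bases long, 5′ to 3′ along the gene, from RefSeq in GRCm38.p6 (mm10). Capitals mark matches on either strand to the E2F octamers TTTCCCGC, TTTCGCGC, TTTGCCGC and TTTGGCGC and to CCAAT, the NF-Y box. Mcm7, Mcm6, Cdt1 and Orc6 have the greatest covered length among called members with a promoter sequence. Mcm5, Mcm2 and Mcm3, the last without peaks, were added after their values were seen. Orc5 and Pcna, next in covered length (748 and 625 bp), had been planned and are not printed. Neither holds an E2F octamer, and Pcna has 1 NF-Y box and Orc5 none. The printed set is therefore not a fair sample of these letters. The windows are chr5:138171834-138172133 on the minus strand for Mcm7, chr1:128359656-128359955 minus for Mcm6, chr8:75109259-75109558 plus for Mcm5, chr6:88898731-88899030 minus for Mcm2, chr1:20820263-20820562 minus for Mcm3, chr8:122567765-122568064 plus for Cdt1 and chr8:85299382-85299681 plus for Orc6.
Mcm7: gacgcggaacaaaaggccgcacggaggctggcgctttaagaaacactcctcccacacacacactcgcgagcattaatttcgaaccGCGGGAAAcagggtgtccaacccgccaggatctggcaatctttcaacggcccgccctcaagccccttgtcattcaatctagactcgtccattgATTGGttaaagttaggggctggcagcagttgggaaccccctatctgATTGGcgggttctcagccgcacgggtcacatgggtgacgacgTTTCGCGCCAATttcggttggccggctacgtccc
Mcm6: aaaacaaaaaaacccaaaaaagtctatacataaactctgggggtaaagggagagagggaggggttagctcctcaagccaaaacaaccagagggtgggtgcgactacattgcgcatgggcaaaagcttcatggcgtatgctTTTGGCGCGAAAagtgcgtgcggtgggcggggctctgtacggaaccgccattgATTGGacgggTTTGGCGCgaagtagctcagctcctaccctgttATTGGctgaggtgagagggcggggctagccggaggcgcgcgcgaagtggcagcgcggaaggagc
Mcm5: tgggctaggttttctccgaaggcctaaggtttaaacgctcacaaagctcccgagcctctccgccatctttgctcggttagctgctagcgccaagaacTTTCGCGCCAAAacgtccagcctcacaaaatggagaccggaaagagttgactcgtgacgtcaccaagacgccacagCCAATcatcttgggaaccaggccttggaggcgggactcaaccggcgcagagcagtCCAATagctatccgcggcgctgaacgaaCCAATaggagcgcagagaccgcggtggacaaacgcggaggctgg
Mcm2: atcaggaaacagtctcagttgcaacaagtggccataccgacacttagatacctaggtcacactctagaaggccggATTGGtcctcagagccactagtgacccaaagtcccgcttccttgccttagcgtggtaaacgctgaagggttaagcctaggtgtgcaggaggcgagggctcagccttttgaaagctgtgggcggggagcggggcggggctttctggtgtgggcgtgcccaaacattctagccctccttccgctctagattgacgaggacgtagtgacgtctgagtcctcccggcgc
Mcm3: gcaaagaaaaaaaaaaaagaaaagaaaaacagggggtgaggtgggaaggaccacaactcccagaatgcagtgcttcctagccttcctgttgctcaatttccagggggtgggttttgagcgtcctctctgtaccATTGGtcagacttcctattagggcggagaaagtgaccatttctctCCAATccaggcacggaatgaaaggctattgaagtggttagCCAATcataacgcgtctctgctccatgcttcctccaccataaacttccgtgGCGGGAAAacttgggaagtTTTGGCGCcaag
Cdt1: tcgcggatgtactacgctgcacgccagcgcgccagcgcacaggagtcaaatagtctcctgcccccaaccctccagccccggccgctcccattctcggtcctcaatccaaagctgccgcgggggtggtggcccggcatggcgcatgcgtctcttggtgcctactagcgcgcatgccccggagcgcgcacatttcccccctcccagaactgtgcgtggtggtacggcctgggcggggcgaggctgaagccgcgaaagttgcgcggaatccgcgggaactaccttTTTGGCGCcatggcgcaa
Orc6: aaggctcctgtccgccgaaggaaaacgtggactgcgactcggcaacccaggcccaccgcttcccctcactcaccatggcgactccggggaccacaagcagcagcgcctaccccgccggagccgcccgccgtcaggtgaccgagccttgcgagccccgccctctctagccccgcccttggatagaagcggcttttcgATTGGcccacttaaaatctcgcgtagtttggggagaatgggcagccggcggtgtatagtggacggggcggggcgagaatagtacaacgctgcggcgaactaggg

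E2F octamers were present in Mcm3, Mcm5, Mcm6 and Mcm7 and absent from the window of Mcm2, while Mcm4 has no promoter entry. With the start site as position 0, Mcm7 has octamers at -165 and 16, and the second overlaps an NF-Y box. Mcm6 has 3 matches, of which those at -110 and -106 overlap on opposite strands and the third lies at -47. Mcm5 has an overlapping pair at -153 and -149. Mcm3, with no peak, has octamers at 19 and 38 and 3 NF-Y boxes. Cdt1 has 1 octamer, at 32, and Orc6 has none but holds an NF-Y box at -54. Peaks of both replicates covered all 300 bases of the windows of Mcm7, Mcm5, Cdt1 and Orc6. The window of Mcm2, with a single NF-Y box at -175, lay wholly under the replicate 1 peak and outside that of replicate 2. None of the 300 bases at Mcm6 was covered, since its peaks began beyond the window.

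Over the 39 members with a promoter sequence, 14 held an E2F octamer (35.9%), against 2.94% of all 17492 promoters of that length and 5.08% of CpG-rich ones. They were Cdc6, Cdt1, Gins3, Mcm3, Mcm5, Mcm6, Mcm7, Orc1, Orc3, Pola1, Pold1, Pold3, Pole2 and Rfc3. An NF-Y box was present in 23 (59.0%, against 39.2% of all and 37.4% of CpG-rich promoters). The ETS site CCGGAAGT was present in 9 (23.1%, against 5.28% and 9.07%), but in the 150 bases nearest the start only in 4 (10.3%, against 4.33% and 7.42%). The GC box GGGCGG was in 28 (71.8%), above all promoters (46.3%) and below CpG-rich ones (76.8%). The E-box CACGTG was in 5 (12.8%, against 7.91% and 11.7%) and TTTGAA, the cell cycle homology region (CHR), in 6 (15.4%, against 16.5% and 8.85%). All motifs were searched on both strands. Octamers were found in 6 of 14 members called at their gene ends and in 8 of 25 not called, a difference of 2 small counts that was not tested. Not called does not mean without peaks. Of those 8, Cdc6, Orc3, Pola1, Pold1 and Pole2 had a gene-end peak in replicate 2, and Orc1 had peaks of both replicates at its start site. Only Mcm3 and Gins3 had none. A match is a description of letters and not evidence of binding.

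**Figure D2:**
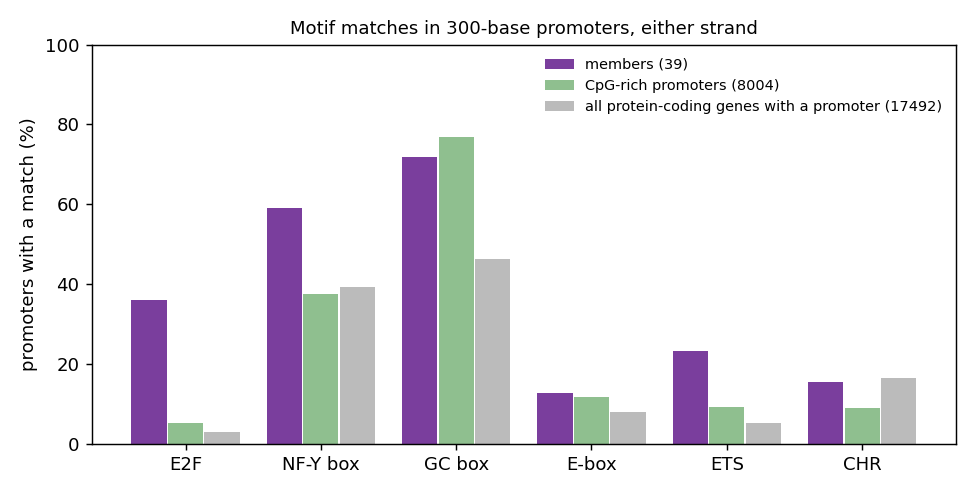
Share of 300-base promoters (vertical axis, percent) with at least 1 match to each of 6 motifs on either strand, for 39 members, 8004 CpG-rich promoters and all 17492 promoters. The E2F octamers stand at 35.9% in the members and at 5.08% and 2.94% in the other sets, while the GC box stands at 71.8% in the members and 76.8% in CpG-rich promoters.

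Of the polymerase genes 2 of 10 were called, close to the 16.8% of all genes, but the count depended on replicate 1. Without it 6 of 10 had a peak (against 22.2% of genes), and 7 of 10 had one in either replicate (against 30.5%). Prim2, the large subunit of primase, had peaks of 707 bp (fold 2.32) and 333 bp (fold 2.16) just outside its right-hand end. Pold3, an accessory subunit of polymerase delta, had peaks of 278 bp (fold 2.92) and 356 bp (fold 2.17) that shared 114 bp, and the former is at the smallest width listed in replicate 1. Pola1 and Pola2 of polymerase alpha (610 and 643 bp, folds 2.37 and 2.69), Pold1, the catalytic subunit of delta (346 bp, fold 2.33), and Pole2 of epsilon (374 bp, fold 2.17) had peaks in replicate 2 alone. Pole3, a histone-fold subunit of epsilon, was the reverse, with 1 peak of 434 bp (fold 2.54) in replicate 1. Prim1, Pold2 and Pole, the catalytic subunit of epsilon, had no gene-end peak.

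Among clamp and strand processing genes 4 of 11 were called: Rfc3, Rfc4, Pcna and Fen1. This share, 36.4%, stood against 16.8% of all genes and was near the 30.3% of genes with CpG-rich promoters. Pcna, the sliding clamp, had a peak of 1795 bp (fold 2.16) in replicate 1 that ran from -1194 to 600 bp around its start. The replicate 2 peak was 1046 bp wide (fold 2.24) and lay almost wholly downstream, from -24 to 1021 bp. An end of Cds2, a lipid synthesis gene, lies 158 bp from that of Pcna. Fen1, the nuclease that trims Okazaki fragments, had the highest fold of any member, 3.89 in replicate 2 (995 bp, -log10 q 3.84), while its replicate 1 peak lay in the lower part of the list (539 bp, fold 2.01, 33.0th percentile of fold). Tmem258 starts 191 bp from the Fen1 end.

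The clamp loader was partly marked. Rfc3 had peaks of 758 bp (fold 2.13) and 572 bp (fold 2.30), and Rfc4 of 610 bp (fold 2.41) and 282 bp (fold 2.05). Rfc2 had a replicate 2 peak of only 229 bp. Rfc1, the large subunit, had no gene-end peak, though replicate 2 had one of 415 bp (fold 2.13) at its RefSeq start site, 2978 bp inside the gene span, and Rfc5 had none within 25 kb. The single-strand binding protein RPA was not called for any of its 3 subunits. Rpa1 had a peak of 867 bp in replicate 1 (fold 2.87, -log10 q 1.54), and Rpa2 (298 bp, fold 1.46) and Rpa3 (340 bp, fold 2.88) had theirs in replicate 2. Lig1, which joins Okazaki fragments, had no gene-end peak.

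Of the 3 nucleotide supply genes only Rrm1 was called (33.3%, against 16.8% of all genes and 30.3% of those with CpG-rich promoters). Rrm1, the large subunit of ribonucleotide reductase, had peaks of 503 bp (fold 2.46) and 870 bp (fold 2.5), both beginning just downstream of the start site, at 54 and 3 bp. Rrm2, its small subunit, had a wide peak in replicate 2 alone, 1861 bp with a fold of 2.59 and a -log10 q of 1.21, from -970 to 890 bp, and its nearest replicate 1 peak lay 55313 bp away. Tyms, thymidylate synthase, had no peak of either replicate within 25 kb. Mcm3, Gins3, Rfc5 and Tyms were the only members in that position.

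The peaks lay at the starts of these genes. Strand was known for 43 of the 53 gene-end peaks of members, and all 43 were at the 5′ end, 1 of them (Pole3, a short gene) within 1 kb of both ends. The start base itself lay under 26 of the 43. Of the others, 15 lay wholly downstream and 2, at Rfc4 and Rpa3, wholly upstream, and the median peak centre was 114.5 bp downstream. Counted per gene, the start base was covered in 13 of 39 members in replicate 1 (33.3%, against 15.3% of genes with a start site) and in 18 in replicate 2 (46.2%, against 14%). Of the 18 called members, 6 had another coding gene's end within 1 kb of the acetylated end: Orc6, Mcm4, Mcm7, Dbf4, Pcna and Fen1. Another 2, Orc5 and Prim2, had the end of a long noncoding RNA there, and 10 had no other annotated gene end. Over the 35 members with a gene-end peak in either replicate, 13 had such a coding neighbour. Those with a peak in 1 replicate only were Orc3, Cdc45, Pold1, Pole2, Pole3, Rpa1 and Rpa3. Peaks with such a neighbour cannot be assigned to 1 gene.

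**Figure D3:**
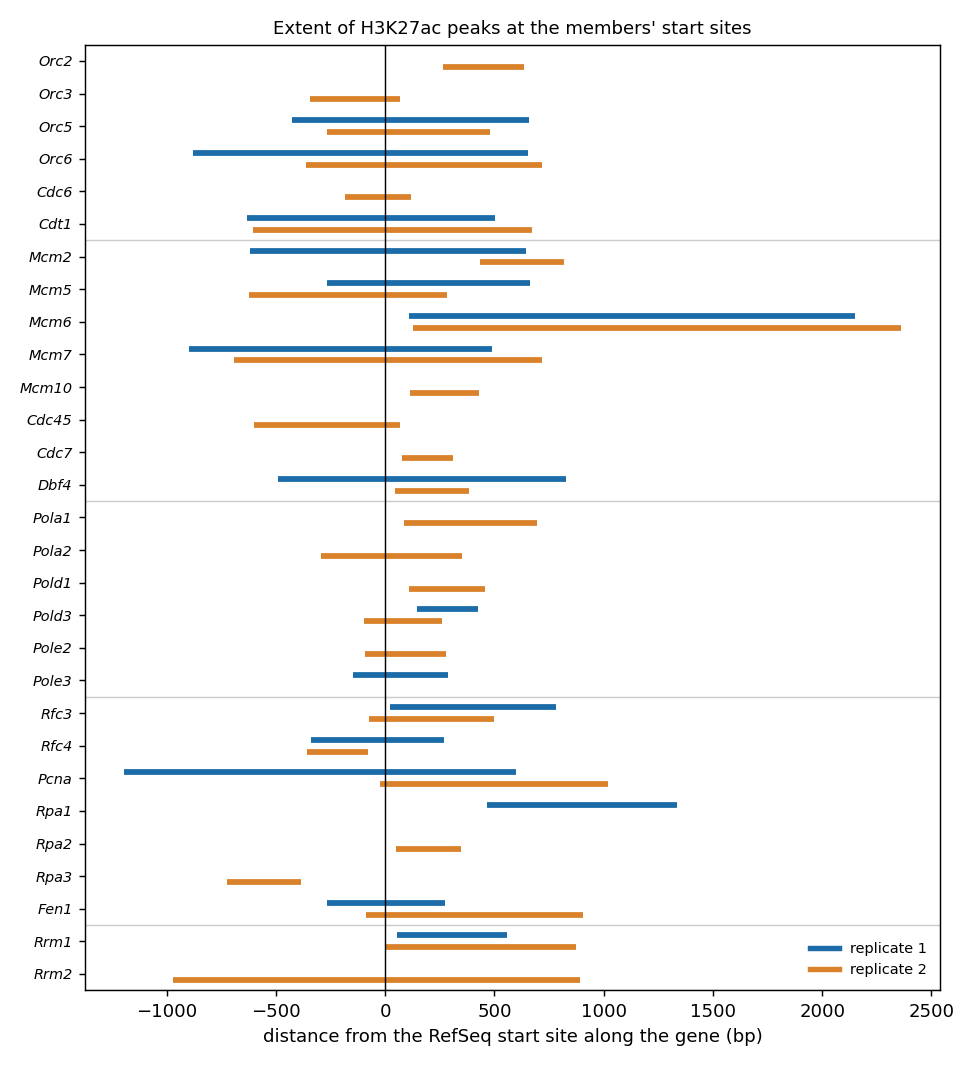
Extent of each H3K27ac peak along the gene (horizontal axis, bp from the RefSeq start site, downstream positive) for the members with a gene-end peak and a known strand, in replicate 1 (blue) and replicate 2 (orange), ordered by step. Most bars cross or begin just after position 0, and those of Mcm6 run to 2149 and 2362 bp downstream.

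In strength the members' peaks were ordinary or weak for gene ends. The 20 peaks of replicate 1 had folds from 1.54 to 2.92 with a median of 2.23, and the median of all 4654 gene-end peaks there was 2.16. The 33 of replicate 2 ranged from 1.46 to 3.89 with a median of 2.25, against 2.32 for all 4101. A q-value of at most 0.05 was reached by 2 of the 20 (10.0%, against 27% of gene-end peaks), at Mcm6 and Rpa1, and by 6 of the 33 (18.2%, against 42.9%), at Gmnn, Mcm6, Mcm10, Gins4, Rpa3 and Fen1. Folds are those of the authors' caller and were read within each list only.

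**Figure D4:**
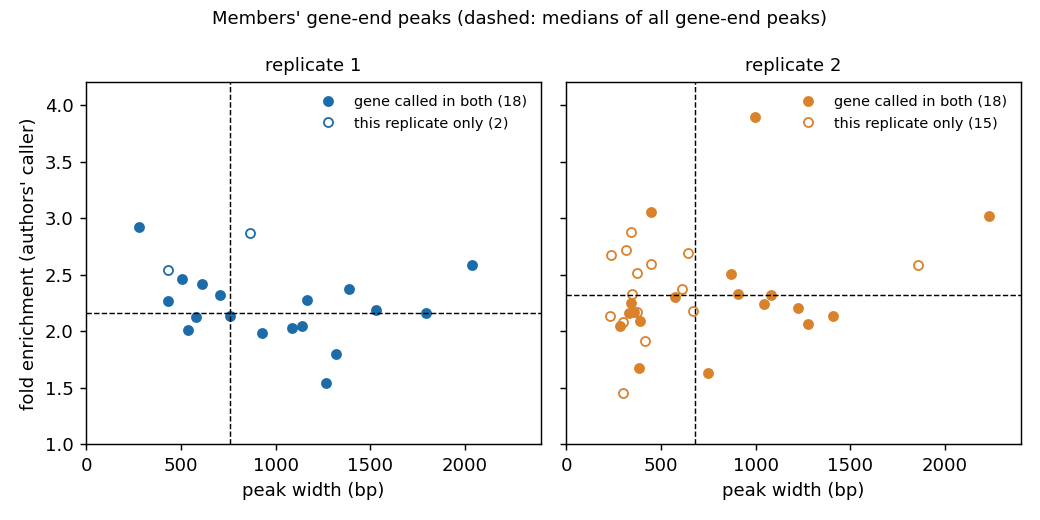
Width (horizontal axis, bp) and fold enrichment (vertical axis, as given by the authors' caller) of each gene-end peak of a member, for replicate 1 and replicate 2. Filled points are members called in both replicates, open points members called in that replicate only, and dashed lines the medians of all gene-end peaks. The open points of replicate 2 lie mostly left of its median width, and Fen1 stands highest at 3.89.

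Covered length, the bp under peaks that both replicates share in the 25 kb around a gene end, had a median of 114 bp over the 47 members and 0 bp over all protein-coding genes. The median depended on the setting: it was 0 bp within 5 or 10 kb or at q of at most 0.05, 572 bp without replicate 1 (all genes 0 bp) and 707 bp without replicate 2 (all genes 278 bp). Covered length was above 0 for 24 members (51.1%, against 30.3% of genes). The greatest values were at Mcm7 (2676 bp), Mcm6 (2022 bp), Pole2 (1669 bp) and Cdt1 (1542 bp). These values differ in what they hold. All 2022 bp of Mcm6 are the peak at its own start. At Mcm7 the largest of 4 regions, 1184 bp, is at its start, and the others lie nearest to Zfp113, to Cnpy4 and Taf6, and to Mblac1. At Cdt1 1110 bp are at its own start and 432 bp over an end of Piezo1.

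For Pole2, Pold1, Prim1 and Pole the covered length lay at or nearest to other coding genes. For Prim2 and Pold3 the nearest coding gene end was their own, at 238 and 147 bp. A long noncoding RNA has an end 16 bp from that of Prim2. At Pole2 the regions of 742 and 927 bp were nearest to Mgat2 and Rpl36al and to Dnaaf2. The 1023 bp of Pold1 were over an end of Nr1h2, the 782 bp of Prim1 were nearest to Naca and the 297 bp of Pole to Pgam5. In the clamp group Pcna had 625 bp, Rfc4 605 bp (340 of them nearest to Eif4a2) and Rfc3 476 bp. Rrm1 had 503 bp, and Rrm2 and Tyms had 0 bp.

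**Figure D5:**
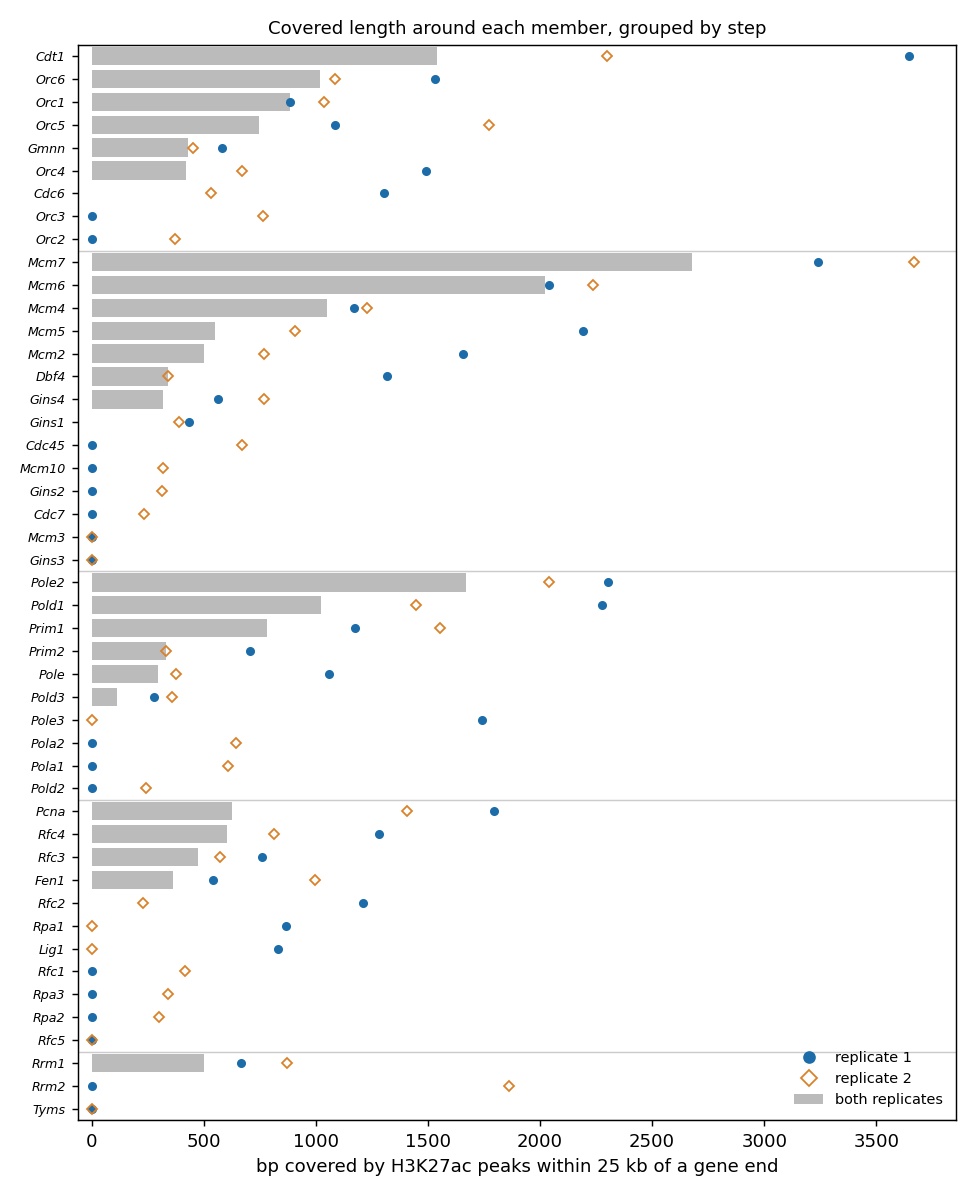
Length covered by H3K27ac peaks within 25 kb of a gene end (horizontal axis, bp) for each of the 47 members, grouped by step and sorted within it. Bars give bp covered by both replicates, filled circles replicate 1 and open diamonds replicate 2. Mcm7 has the longest bar (2676 bp), and Mcm3, Gins3, Rfc5 and Tyms have all values at 0.

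Other genes of the same pathway, in lists that share no gene with the 47, were also called more often than the average gene (16.8%). Over all genes with CpG-rich promoters the share was 30.3%, to which the replisome list below is close. How many genes of these lists have such promoters was not counted. Among 25 further replisome and fork genes 8 were called (32.0%): Timeless, a fork protection factor with a covered length of 1472 bp, Topbp1, an activator of origin firing and of the ATR kinase (1409 bp), Top1, a topoisomerase (978 bp), Atad5, which unloads the clamp (806 bp), Dscc1 (674 bp), Chtf8, Pole4 and Rnaseh2a. Among 11 genes of chromatin assembly at the fork 5 were called (45.5%): Asf1a, a histone chaperone (874 bp), Ssrp1 (464 bp) and Supt16 (385 bp), the subunits of FACT, Mms22l (339 bp) and Chaf1a (185 bp).

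Among 33 further nucleotide synthesis genes 13 were called (39.4%, against 16.8% of all genes and 30.3% of those with CpG-rich promoters). Dtymk, thymidylate kinase, had 1168 bp, Ppat, the first enzyme of purine synthesis, 1103 bp, Cmpk1 1037 bp, Guk1 787 bp and Ctps2 686 bp. Mthfd1, Ctps, Gart, Mthfd2, Dut, Dhodh, Dck and Paics were called as well, Paics with 0 bp shared within 25 kb. For genes of the further lists, covered length was not split into regions, so it may lie at neighbouring genes. Over all 5 further lists (99 genes), 41 were called (41.4%, against 16.8% of all genes). A peak was found at 57 in replicate 1 (against 25.1% of all genes) and at 56 in replicate 2 (against 22.2%). Peaks in 1 replicate only were split there as 16 in replicate 1 and 15 in replicate 2, where the 47 members had 2 and 15. Over all genes these shares were 8.32% and 5.44%. That contrast was seen in the data and was not tested.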

How the data were processed

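The H3K27ac profiles of 2 replicates come from ChIP-seq in which, per the labels' protocol, chromatin was first bound with an H3 antibody and given adapters, then bound with the H3K27ac antibody. The submitters' processing notes name Bowtie2, MACS 1.4.2 and the mm10 build, though the 9-column broad layout is that of MACS2. Peaks were called per sample after duplicate removal, per the peak names in the deposited files. Which cutoff and control the caller used is not given in the sources used here. For every peak, fold (a ratio), −log10 p-value and −log10 q-value were computed by the authors and deposited. Depth is unknown.

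Peaks off the assembled chromosomes (75 and 55) were left out. Coordinates count from 1. A gene was called when each replicate had a peak within 1 kb of either end in the RefSeq table (GRCm38.p6). Covered length is the bp under peaks of both replicates within 25 kb, at the end where it is larger. Strand and start sites came from the RefSeq promoter table, taking the start nearest the 5′ end. It has no entry for Gmnn, Mcm4, Gins1, Gins2, Gins4, Prim2, Pole and Rfc2. No test was made: with 1 group of 2 samples, members are described beside the same shares over all genes. The members, steps and lists were chosen with earlier results of these data known. Every member is named. In other lists, called genes are named, at most 5 with covered length. Calls and lengths were checked on simulated data against direct counting. Alternatives were other windows, stricter q, the 9000 peaks of smallest p, 1 replicate, overlap, start sites, fewer chromosomes, other backgrounds and a 150-base promoter. Python 3.11.15, pandas 2.3.3, numpy 2.4.6 and matplotlib 3.10.9 were used.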

Additional observations from a re-analysis of the deposited data

How the results depend on the processing

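The count of 18 called members was within 1.5 times of itself with windows of 500 bp, 2.5 kb and 5 kb (17, 18 and 22, against 15.3%, 18.9% and 21.5% of all genes), with the 9000 peaks of smallest p (14, against 12.8%, without Cdt1, Mcm2, Mcm5 and Dbf4), with overlapping peaks (17, against 16.2%), at start sites (16 of 39, against 17.6%) and without chromosomes 6, 9, 14 and 17 (17 of 45, against 16.9%). It fell to 1 with q of at most 0.05 and to 0 with q of at most 1e-05, where 2.64% and 0.731% of all genes were called, and was 35 (74.5%) with a peak in either replicate, against 30.5% of genes. With 1 replicate left out it ranged from 20 (without replicate 2, against 25.1%) to 33 (without replicate 1, against 22.2%). By step, a peak in either replicate (30.5% of all genes) gave 7 licensing, 11 helicase, 7 polymerase, 8 clamp and 2 nucleotide supply genes, and leaving out 1 replicate gave 4 to 7, 7 to 11, 3 to 6, 5 to 7 and 1 to 2. The background share was 30.3% over CpG-rich promoters and 18.0% without chemosensory receptor genes, in place of 16.8%. Median covered length was 0 bp within 5 kb, within 10 kb and at either stricter q, 333 bp within 50 kb, 870 bp for either replicate (all genes 441 bp) and 572 to 707 bp with 1 replicate left out (all genes 0 and 278 bp). In the 150 bases nearest the start, E2F octamers were in 11 of 39 members (28.2%, against 1.58% of all and 2.72% of CpG-rich promoters), the E-box in 3 (7.69%, against 4.79% and 7.32%) and the ETS site in 4 (10.3%, against 4.33% and 7.42%). Apart from fewer peaks or bases entering a setting, the cause of these shifts was not tested.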

Other observations

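Some regulators of the replication genes carried gene-end acetylation as well, in lists chosen with earlier results of these data known. Counts at a stricter q are not given for these lists. Of 19 E2F and DREAM genes 9 were called (47.4%, against 16.8% of all genes and 30.3% of those with CpG-rich promoters). In replicate 1 there were 13 (against 25.1% of all genes) and in replicate 2 11 (against 22.2%). E2f3, an activating E2F, had 1852 bp covered by both replicates within 25 kb, Lin9, a core subunit of the DREAM and MuvB complexes, had 795 bp, Rbl2, which encodes the pocket protein p130, 674 bp, Rbl1, which encodes p107, 557 bp, and Foxm1, a factor of the G2 to M transition, 528 bp. E2f2, E2f8, Tfdp1 and Lin52 were called too. E2f1 was marked by replicate 2 only and Mybl2 by replicate 1 only.

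Of 11 S-phase checkpoint genes 6 were called (54.5%, against 16.8% of all genes and 30.3% of those with CpG-rich promoters). In replicate 1 there were 9 (against 25.1% of all genes) and in replicate 2 7 (against 22.2%). Rad17, which loads the checkpoint clamp, had 1443 bp, Atrip, the partner of ATR, 995 bp, Etaa1 529 bp, Rhno1 528 bp and Rad1 425 bp, and Wee1 was called too. Rhno1 and Foxm1 are adjacent, so their equal values are 1 shared measurement. Atr was marked by replicate 1 only and Chek1, the kinase downstream of it, by replicate 2 only. No test of these lists was made.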
